A study of Rattus norvegicus with 3 samples.

Results

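The IL-6 family cytokines and the cytokines through which osteoblasts act on osteoclasts were followed in rat osteoblast-like cells given inorganic polyphosphate, a linear chain of phosphate residues. They were chosen by gene symbol, as every non-control probe whose gene name in the scanner files is Il6, Il11, Lif, Il6st, Csf1, Ccl2, Cxcl12, Tnfsf11 or Tnfrsf11b. All 9 genes were on the array, with 11 of its 30367 probes and 45 of its 58717 non-control spots. The array names 26115 genes in all. The cells were ROS17/2.8, a clonal line from a rat osteosarcoma that is used as a model of the osteoblast, so it stands for 1 transformed clone. Confluent cultures in medium that promotes mineralization, with an ascorbate phosphate and β-glycerophosphate for every group, received 1 mg/ml polyphosphate (the high dose) or 0.01 mg/ml (the low dose) for 24 h, or no polyphosphate (the control, for which the labels give no time). Total RNA was labelled with Cy3 and hybridised to 1 one-colour array per group.

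IL-6, IL-11 and LIF are secreted cytokines of a shared family. Each binds its own receptor chain and then signals through gp130, the product of Il6st, to JAK kinases and STAT3, and each acts in bone on the formation of osteoclasts or of osteoblasts. Osteoblasts and their precursors also control osteoclasts directly: M-CSF (Csf1) keeps osteoclast precursors alive, RANKL (Tnfsf11) drives their differentiation, and osteoprotegerin (Tnfrsf11b) is a decoy receptor that captures RANKL. The chemokines CCL2 (Ccl2) and CXCL12 (Cxcl12) attract monocytes and haematopoietic cells.

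Because each group holds 1 array, there is no replicate and no p-value here, and the number of arrays limits the precision. Signals are the scanner's processed intensities, and ratios are log2 of that signal over the array's 75th percentile, which was 937 on the 1 mg/ml array, 964 on the 0.01 mg/ml array and 926 on the untreated array. The ± values are spot errors, which cover the measurement of spots on an array and leave out culture, labelling and every biological difference. All 3 arrays lay on the same slide, so a place on the slide and a group cannot be told apart. Between 55.9% and 57.2% of probes were well above background by the scanner's flag. All 9 osteoblast markers examined were measured, among them Runx2, Sp7, Alpl, Ibsp and Col1a1. Of 11 macrophage and osteoclast markers on the array, the pan-leukocyte gene Ptprc, the macrophage gene Emr1, the calcitonin receptor gene Calcr and Dcstamp, needed for osteoclast fusion, were not well above background on any array, while Cd68, Cd14, Acp5, Csf1r and Itgam were. These did not keep level together: the lysosomal marker Cd68 stood at a log2 ratio of 0.39 ± 0.18 for low over control and -0.34 ± 0.18 for high over low, and the integrin gene Itgam at -0.31 ± 0.11 for high over control. The Itgam ratio rests on 1 of its 2 probes, since the other was not well above background on any array. The summed signal of the 7 macrophage and osteoclast probes detected on at least 1 array was 64.7% of the array's 75th percentile at the high dose, 65.7% at the low dose and 69.2% in the control. That of 2 endothelial probes was 24.7%, 20.1% and 21.2% in the same order, with Pecam1 at a log2 ratio of 0.42 ± 0.15 for high over control. The labels name only this clonal line, so a reading of these markers does not by itself show that other cells were present. The T cell gene Cd3d and the adipocyte gene Fabp4 were also well above background on every array. Any part of other cell types in the ratios below was not tested, and a bulk lysate cannot tell fewer cells from less RNA per cell. Spike-in RNA, added in equal amounts, read lower on both treated arrays, so centring on it would move every log2 ratio up by 0.15 for high over control and by 0.16 for low over control, and by -0.00 for high over low. At the scaling used here the median log2 ratio over all measured genes was -0.01, 0.00 and -0.01 in these comparisons.

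The probes of the 3 cytokine ligands are shown because the largest ratios among the 9 genes rest on them. They are 60 bases long, written 5′ to 3′, with positions of the file's build, rn4. The Il6 probe covers chr4:457279-458563 on the minus strand, an interval of 1285 bases for 60 letters, so its letters are not contiguous in the genome. The Il11 probe at chr1:67788418-67788477 and the Lif probe at chr14:84890562-84890621, both on the plus strand, match a contiguous stretch, as do the other 8 probes of these genes. No annotation of rn4 was used here, so exons are not named.
Il6 probe: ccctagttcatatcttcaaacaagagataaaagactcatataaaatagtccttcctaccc
Il11 probe: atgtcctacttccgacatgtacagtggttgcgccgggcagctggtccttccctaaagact
Lif probe: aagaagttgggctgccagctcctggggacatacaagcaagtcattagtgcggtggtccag

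Of the 9 genes, 5 were well above background on all 3 arrays (Il6, Il11, Lif, Il6st and Csf1), and 4 were on none (Ccl2, Cxcl12, Tnfsf11 and Tnfrsf11b). Il6 was the gene with the largest positive ratio, 1.46-fold higher at the high dose than in the control and 1.39-fold higher than at the low dose. Lif had the largest negative ratio, 1.51-fold lower at the high dose than in the control, and it read close to the background. Il11 was 1.26-fold lower at the high dose than at the low dose. The gp130 gene Il6st and Csf1 lay within 25% of the control at both doses. A gene is called 25% apart, higher or lower, where the brighter array was at least 25% above the dimmer.

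**Figure D1:**
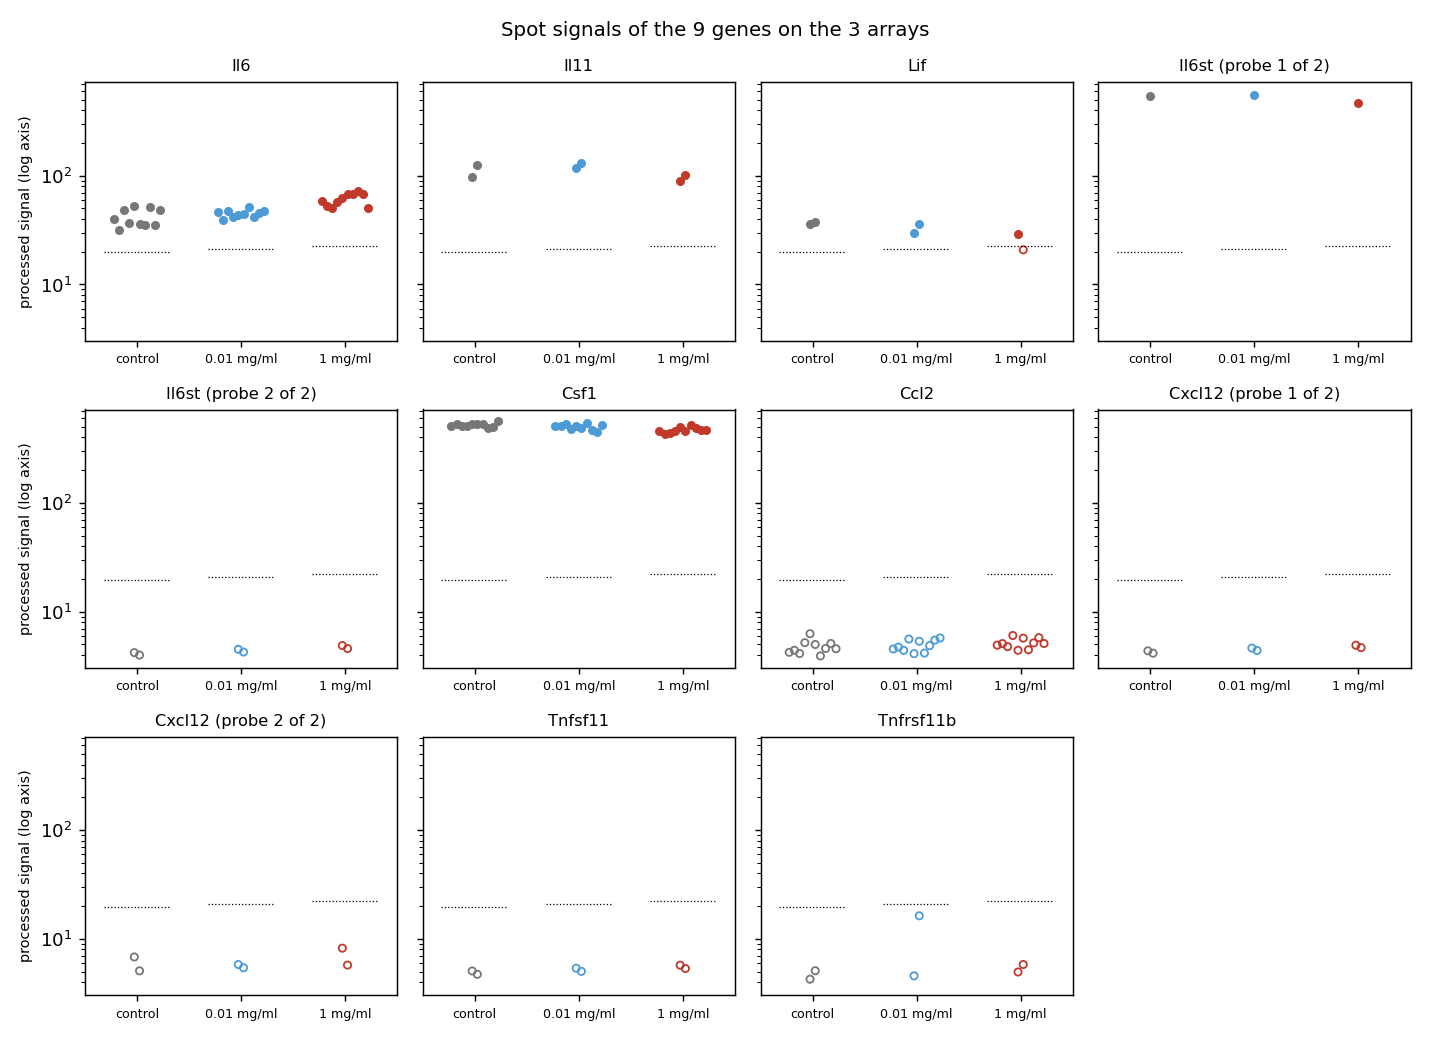
Processed signal (log axis) of every spot of the 11 probes on the control, 0.01 mg/ml and 1 mg/ml arrays. Filled points were well above background, open points were not, and dotted lines mark the lowest signal of any spot well above background on that array (19.7, 21.0 and 22.4). Il6, Il11, Csf1 and 1 Il6st probe lie above these lines on every array, Lif lies near them, and the probes of Ccl2, Cxcl12, Tnfsf11 and Tnfrsf11b lie below.

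Among the ligands, Il6, the founding cytokine of the family, had 10 spots on each array, all well above background. Its processed signal ran from 31.5 to 52.4 on the untreated array with a median of 38.3, from 38.8 to 51.6 on the 0.01 mg/ml array with a median of 45.0, and from 50.3 to 72.7 on the 1 mg/ml array with a median of 60.5. The high dose spots were thus the brightest as a group. They overlapped the control spots in signal, since the brightest control spots, at 51.4 and 52.4, lay above the dimmest high dose spot at 50.3. The next brightest control spots, at 48.1 and 48.3, lay below every high dose spot.
After scaling, 7 of the 10 high dose spots lay above every control spot and 10 of 10 lay above every low dose spot. The gap to the low dose was narrow, from -4.219 for the dimmest high dose spot to -4.223 for the brightest low dose spot. Before scaling, the high dose spots at 50.3 and 50.4 lay below the brightest low dose spot at 51.6. The same positions are printed on each array, and the high dose spot was the brighter at 10 of 10 positions against the control and at 10 of 10 against the low dose. The low dose spot was brighter than the control spot at 6 positions and dimmer at 4. The Il6 log2 ratio was 0.54 ± 0.10 for high over control, 0.47 ± 0.10 for high over low and 0.07 ± 0.11 for low over control. The order of Il6 was therefore high above low and control, and low and control did not differ beyond their spot error.

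**Figure D2:**
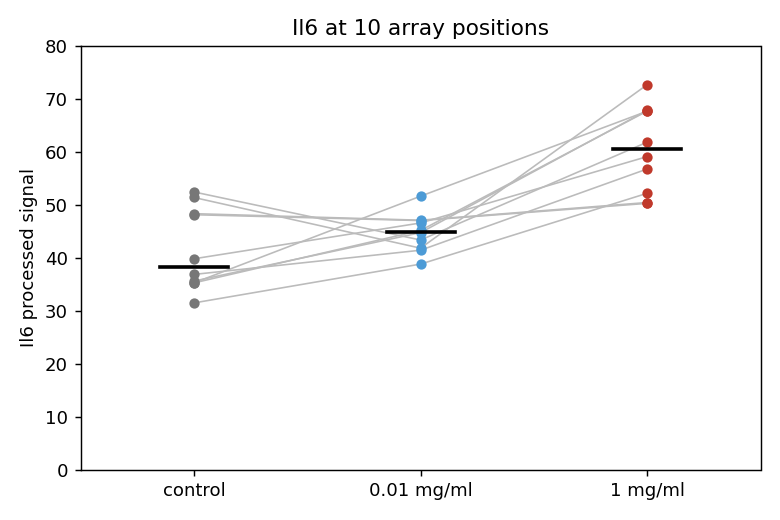
Il6 processed signal at its 10 positions on the 3 arrays; grey lines join the same position and black bars are medians (38.3, 45.0 and 60.5). At every position the 1 mg/ml point lies above the control and 0.01 mg/ml points, while the control and 0.01 mg/ml points overlap.

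The size of the Il6 ratio depended on how background was treated. Its control median of 38.3 compares with 19.7 for the dimmest spot well above background on that array. With normexp background correction, which adds 50 to every spot, the log2 ratio was 0.21 for high over control and 0.23 for high over low, under a 25% difference (0.32 in log2). Without that added constant, an alternative chosen after the data were seen, the values were 0.37 and 0.36. Centring on spike-ins gave 0.70 for high over control, and the median over spots gave 0.64.

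Il11 encodes a cytokine that acts on stromal and bone cells through gp130. Its 2 spots read 96.6 and 125 on the untreated array, 119 and 131 on the 0.01 mg/ml array, and 90.2 and 102 on the 1 mg/ml array. The high dose spots lay below the low dose spots without overlap, and the control spots spanned the gap between them. The log2 ratio was -0.34 ± 0.15 for high over low, -0.21 ± 0.15 for high over control and 0.13 ± 0.14 for low over control. The first of these passed 2 spot errors, and the others did not. Under normexp the high over low ratio was -0.19, or -0.28 without the added constant, and neither value reached 25%.

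Lif encodes leukaemia inhibitory factor, which acts on osteoblasts and osteoclasts and on stem cells. Its 2 spots read 35.7 and 37.7 on the untreated array, 29.4 and 36.0 on the 0.01 mg/ml array, and 29.0 and 20.8 on the 1 mg/ml array, where the dimmer spot was not well above background. After scaling, both high dose spots lay below both control spots. The log2 ratio was -0.59 ± 0.26 for high over control, -0.37 ± 0.26 for high over low and -0.23 ± 0.26 for low over control. The spot that was well above background on every array gave -0.32 for high over control and 0.02 for high over low, and the other spot gave -0.87 and -0.75. The Lif ratio thus rested in large part on a spot near the background: pooling the spot error over more probes raised its error to 0.57 for high over control, and normexp gave -0.20. With only probes whose every spot was well above background, Lif had no value for the comparisons with the high dose.

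Il6st encodes gp130, the signal-transducing receptor chain that IL-6, IL-11 and LIF share. A probe with 1 spot read 539 on the untreated array, 556 on the 0.01 mg/ml array and 470 on the 1 mg/ml array, so the 1 mg/ml array was the lowest. The log2 ratio was -0.21 ± 0.11 for high over control, -0.20 ± 0.11 for high over low and -0.01 ± 0.11 for low over control, none of them beyond 2 spot errors. The other Il6st probe, designed to a different transcript record, had signals between 3.99 and 4.88 on all arrays and was not well above background on any, so it could not bear out or counter the first probe.

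Csf1 encodes M-CSF, the survival factor of osteoclast precursors. Its 10 spots ran from 492 to 563 on the untreated array with a median of 521, from 452 to 545 on the 0.01 mg/ml array with a median of 508, and from 432 to 525 on the 1 mg/ml array with a median of 464. The spots of the 3 arrays overlapped, but after scaling both treated arrays were below the control at 10 of 10 positions. The log2 ratio was -0.16 ± 0.03 for high over control and -0.11 ± 0.03 for low over control, folds of 1.12 and 1.08 lower, and -0.05 ± 0.03 for high over low. These differences passed 2 spot errors against the control but were of the size of the spike-in shift: centred on spike-ins, Csf1 stood at -0.01 for high over control and turned to 0.04 for low over control.

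**Figure D3:**
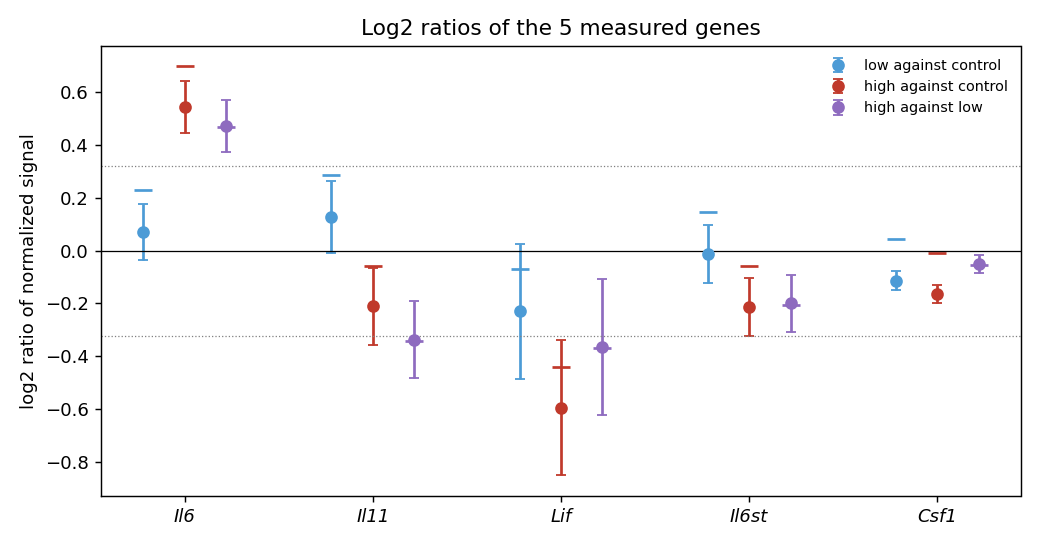
Log2 ratios of the 5 measured genes for low over control, high over control and high over low. Points are the values at the scaling used here with 1 spot error, dashes are the same ratios centred on spike-ins, and dotted lines mark a 25% difference. Il6 alone lies above the upper line, for both comparisons with the high dose (0.54 and 0.47), and Lif lies below the lower line for high over control (-0.59). Lif and Il11 lie below it for high over low (-0.37 and -0.34).

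The other genes through which osteoblasts act on osteoclasts were dim. Tnfsf11, the RANKL gene, read 4.72 and 5.06 on the untreated array, 5.02 and 5.37 on the 0.01 mg/ml array, and 5.34 and 5.72 on the 1 mg/ml array. Tnfrsf11b, the osteoprotegerin gene, read 4.26 and 5.09, then 4.57 and 16.3, then 4.95 and 5.81 in the same order. The reading of 16.3 at the low dose was not well above background, and the repeat spot on that array did not share it.
Ccl2, the gene of a monocyte chemoattractant, had 10 spots from 3.92 to 6.27 on the untreated array, from 4.11 to 5.73 on the 0.01 mg/ml array and from 4.42 to 6.04 on the 1 mg/ml array. Its spots overlapped on all 3 arrays. The 2 Cxcl12 probes, which were designed to different transcript records and lie at chr4:153516205-153516264 and chr4:153510285-153510344 (rn4), read between 4.15 and 8.21 over all arrays. The spots not flagged as well above background had a median signal of 5.03 on the untreated array, 5.28 on the 0.01 mg/ml array and 5.63 on the 1 mg/ml array. Most readings of these 4 genes lay near these medians, and the Tnfrsf11b reading of 16.3 and the Cxcl12 reading of 8.21 lay above them. No ratio is given for these 4 genes, and the RANKL to osteoprotegerin ratio could not be measured on these arrays at any dose. A probe that is not well above background shows that the gene was not detectable with that probe, not that its RNA was absent.

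Counts of called genes were set beside those over all measured genes. For high over control, 1 of the 5 measured genes (Il6) was 25% higher, where 4.81% of 14495 genes were, and 1 (Lif) was 25% lower, where 5.08% were. By more than 2 spot errors, 1 was above 0 (Il6) and 2 were below (Csf1 and Lif), against 10.7% and 12.8% of all genes. With the spot error pooled over more probes, 2 in place of 3 passed, since Lif at -0.59 with an error of 0.57 did not. For low over control, none of the 5 was 25% higher or lower, against 2.51% and 3.26% of 14621 genes. By more than 2 spot errors none was above 0 and 1, Csf1, was below, against 4.27% and 4.56%.
For high over low, 1 gene (Il6) was 25% higher and 2 (Il11 and Lif) were lower, against 4.58% and 3.82% of 14480 genes. By more than 2 spot errors, Il6 was above 0 and Il11 below, against 9.61% and 10.6%. None of the 5 genes was 2-fold apart in any comparison, which 0.117%, 0.116% and 0.076% of genes were for high over control, low over control and high over low. The balance of calls depended on the scaling: of genes past 25% for high over control, 48.6% were higher, and 89.5% when centred on spike-ins, and for low over control 43.5% and 87.4%. The comparisons share arrays, so a gene with an unusual reading on 1 array appears in more than 1 of them. The median log2 ratio of the 5 measured genes was -0.21, -0.01 and -0.20 in that order. The Il6 ratio was opposite in sign to that median in both comparisons with the high dose.

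Promoter sequence of the 2 ligand genes Il6 and Il11, as RefSeq gives it on GRCr8, is shown. Their products signal through the same receptor chain, and their ratios for high over low differed in sign (0.47 ± 0.10 and -0.34 ± 0.15). For high over control Il11, at -0.21 ± 0.15, did not pass 2 spot errors. Of the 9 genes, 5 have an entry in the promoter table used here. The 250 bases before the annotated start are written 5′ to 3′ on the gene's strand, with matches to the motifs below in capitals. The Il6 window is chr4:5894576-5894825 (GRCr8, minus strand), and the Il11 window is chr1:78098372-78098621 (GRCr8, plus strand).
Il6 promoter: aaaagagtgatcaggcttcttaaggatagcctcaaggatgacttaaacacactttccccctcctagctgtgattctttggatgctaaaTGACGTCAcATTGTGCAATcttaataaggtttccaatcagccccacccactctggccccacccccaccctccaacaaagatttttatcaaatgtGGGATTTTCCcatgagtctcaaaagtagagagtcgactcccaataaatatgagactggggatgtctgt
Il11 promoter: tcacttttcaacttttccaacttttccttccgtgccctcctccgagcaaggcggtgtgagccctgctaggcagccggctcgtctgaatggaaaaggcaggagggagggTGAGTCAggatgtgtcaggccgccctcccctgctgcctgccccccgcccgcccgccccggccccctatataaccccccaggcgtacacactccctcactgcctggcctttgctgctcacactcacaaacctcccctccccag

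The motifs were searched on both strands, and a match is a run of letters and not a measured site. The Il6 window holds the cAMP response element core TGACGTCA at bases -162 to -155 from the start, which 1.59% of 33469 promoters hold. It also holds the C/EBP form TTGNNCAAT on both strands, overlapping at bases -153 to -144 (2.24% of promoters), and the NF-kappaB form GGGNN followed by TTNCC at bases -68 to -59 (4.36%). The Il11 window holds the AP-1 form TGANTCA at bases -142 to -136 (6.34%). Neither window holds the STAT form TTCNNNGAA (7.67%), the hypoxia response element core ACGTG (16.6%) or TATAAA (12.9%). The arrays measured RNA and no binding, so these letters carry no value for any factor.

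Other genes of the IL-6 pathway were examined for the steps on either side of the 5 measured genes. Of 20 genes of ligands, receptor chains and kinases listed, 14 were measured. For high over control 3 of them were 25% higher and none lower, where 4.81% and 5.08% of all measured genes were, with a median log2 ratio of 0.07. The higher genes were Clcf1, a further ligand of the family, at 0.50 ± 0.21 from 1 spot per array, and the kinase genes Jak2 at 0.47 ± 0.08 and Jak1 at 0.35 ± 0.08. By more than 2 spot errors these 3 were above 0 and 3 others below, where 10.7% and 12.8% of all measured genes were. Those below were Stat5a at -0.21 ± 0.03, Ptpn11 at -0.17 ± 0.07 and Cntf at -0.12 ± 0.05. With spike-in centring they stood at -0.06, -0.02 and 0.03. Jak1 and Jak2 stood at -0.03 ± 0.08 and 0.13 ± 0.09 for low over control and at 0.38 ± 0.08 and 0.35 ± 0.08 for high over low, so their highest reading was on the same array as that of Il6. Clcf1 stood at 0.65 ± 0.21 for low over control, where it was the only gene of this list past 25%. In that comparison 2.51% of all measured genes were 25% higher and 3.26% lower, so 1 call is too few to set apart from that background.
Stat3 itself stood at 0.05 ± 0.09 at the high dose. Lifr, the receptor chain for LIF, was at 0.06 ± 0.22 and Il11ra1, that for IL-11, at 0.10 ± 0.13. The IL-6 receptor chain gene Il6r read 5.25 on the 1 mg/ml array over 10 spots and was not well above background on any array, nor was Osmr. So of the specific receptor chains only those for IL-11 and LIF had a measured level beside Il6st.

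Of 17 genes known as STAT3 targets or feedback inhibitors, 13 were measured, with a median of -0.06 for high over control, -0.05 for low over control and 0.04 for high over low. The transcription factor gene Cebpb was the 1 gene 25% higher for high over control, at 0.37 ± 0.05, where 4.81% of all measured genes were. Socs3, the main feedback inhibitor of gp130 signalling, stood at -0.08 ± 0.20 for high over control and 0.08 ± 0.20 for low over control, with signals of 57.7, 66.2 and 60.1 on the high dose, low dose and untreated arrays. Pim1 was at -0.35 ± 0.36 at the low dose from 1 spot per array. For high over low, Hif1a stood at 0.45 ± 0.18.

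Of 23 further coupling factors listed, 11 were measured for high over control, with a median of -0.06. Efnb2, which encodes the ligand ephrin-B2 of bone cell contact signalling, was the 1 gene past 25%, at 0.42 ± 0.22. Of all measured genes 4.81% were 25% higher and 5.08% lower. The Efnb2 ratio did not pass 2 spot errors. Tgfb1, encoding the matrix-stored growth factor TGF-beta 1, stood at -0.29 ± 0.03 with 10 spots per array, and Sema3a, encoding a semaphorin that restrains osteoclasts, at -0.19 ± 0.08. With spike-in centring these were -0.13 and -0.04. At the low dose none of 10 measured genes was past 25%, where 2.51% of all genes were higher and 3.26% lower, and Adam17 and Cx3cl1 lay furthest from 0, at -0.26 ± 0.20 and -0.25 ± 0.14. The RANK gene Tnfrsf11a and Postn were not well above background on any array.

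Among 27 other chemokine, colony stimulating factor and chemokine receptor genes on the array, 9 were measured for high over control and none was past 25%, where 4.81% of all measured genes were higher and 5.08% lower, so the count is too small to set apart from that background. Csf1r, encoding the M-CSF receptor, lay furthest from 0 at 0.32 ± 0.25, and stood at -0.37 ± 0.20 for low over control and at 0.88 ± 0.28 for high over low, from the probes detected on both arrays in each case. Its 1-spot probe read 79.0 on the untreated array, 55.8 on the 0.01 mg/ml array and 99.9 on the 1 mg/ml array. Its 2-spot probe had no spot well above background on the 1 mg/ml array and 1 on each of the others, with overlapping signals, so it gives no order. The chemokine gene Ccl27 stood at -0.32 ± 0.10 at the high dose. Ccr2 and Cxcr4, which encode receptors of CCL2 and CXCL12, were not well above background on any array. Cxcr7, which encodes another CXCL12 receptor, was well above background on every array. It read 404 on the 1 mg/ml array, 405 on the 0.01 mg/ml array and 360 on the untreated array, with a log2 ratio of 0.15 ± 0.09 for high over control.

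Of 25 NF-kappaB and inflammatory genes listed, 15 were measured for high over control, none of them 25% higher and 2 lower, where 4.81% and 5.08% of all measured genes were. Their median was -0.11, which turned to 0.05 with spike-in centring. The 2 genes past 25% were Birc3 at -0.40 ± 0.26 and Traf1 at -0.35 ± 0.34, both near the background or from 1 spot per array. Neither passed 2 spot errors. By that measure 0 genes were above 0 and 4 below, where 10.7% and 12.8% of all measured genes were. These 4 were Nfkbib at -0.31 ± 0.09, Nfkbie at -0.28 ± 0.12, Traf3 at -0.16 ± 0.06 and Icam1 at -0.09 ± 0.03. With spike-in centring they stood at -0.16, -0.13, -0.01 and 0.06. For high over low 1 gene was 25% higher, Nfkb1 at 0.39 ± 0.11, and 2 were lower, Traf1 at -0.60 ± 0.31 and Birc3 at -0.42 ± 0.26, where 4.58% and 3.82% of all measured genes were. The inflammatory cytokine genes Tnf, Il1a and Il1b were not well above background on any array. For low over control none of the 15 was past 25%, where 2.51% of all genes were higher and 3.26% lower.

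Nearness of a gene's pair of ratios against the control was ranked among names that are RefSeq symbols. Nearest to Il6 were Crebrf, Tapt1 and LOC100911534, at distances of 0.01, 0.01 and 0.02 in log2 over 3 arrays. Of all 14389 measured genes, whether or not named by a RefSeq symbol, 57 lay within 1 spot error of Il6. For Lif the nearest were Serpinc1, Tubgcp6 and Fer1l6, at 0.01, 0.02 and 0.03, and 342 genes lay within its larger error of 0.26. With 3 arrays such nearness describes the readings only.

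**Figure D4:**
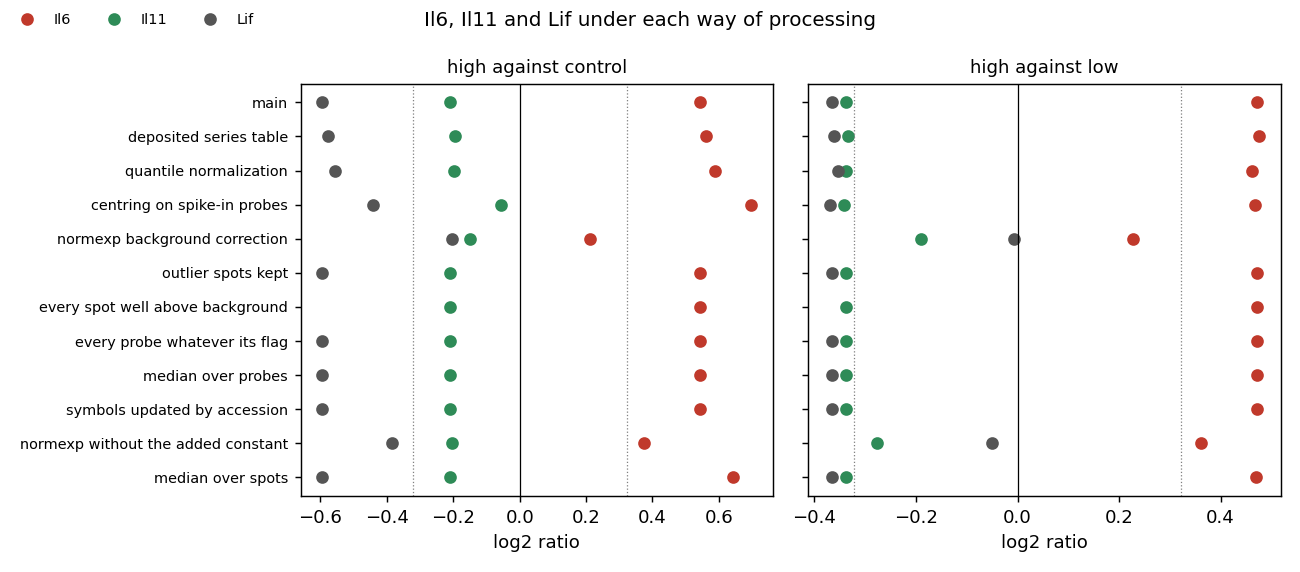
Log2 ratios of Il6, Il11 and Lif for high over control and high over low under the main setting and 11 alternatives; dotted lines mark a 25% difference. Il6 lies between 0.21 and 0.70 for high over control and between 0.23 and 0.48 for high over low, and the lowest of each is normexp. Lif has no point where every spot had to be well above background, and its high over low ratio lies near 0 under both forms of normexp.

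Over 11 alternatives the Il6 ratio for high over control stayed above 0, from 0.21 to 0.70, and was past 25% under 10 of them. For high over low it ran from 0.23 to 0.48, also past 25% under 10. The Lif ratio for high over control ran from -0.59 to -0.20 over the 10 alternatives that gave a value and was past 25% under 9. The Il11 ratio for high over low ran from -0.34 to -0.19 and was past 25% under 9 of 11. For low over control, Il6 ran from -0.02 to 0.23, and no alternative put it past 25%. Lif ran from -0.33 to -0.07 in that comparison and was past 25% under 1 of 11 alternatives, normexp without the added constant. Il6, Il11 and Lif each have 1 probe, with no outlier spot on any array. Keeping outlier spots, using every probe or taking the median over probes therefore could not change their ratios. Requiring every spot to be well above background could not change those of Il6 and Il11, whose spots all were. Il11 and Lif have 2 spots, whose median equals their mean, so the median over spots could not change their ratios. The counts of alternatives include these settings, whose outcome was fixed. Updating the symbols also left the ratios of Il6, Il11 and Lif unchanged.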

How the data were processed

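The authors deposited spot intensity readings from the scanner. The software was, per the file headers, Agilent Feature Extraction 10.7.3.1 (protocol GE1_107_Sep09, array design 028279, coordinates on rn4), with background subtraction and detrending within an array, surrogates for spots at background, and no normalization between arrays. Other deposited columns are flags per spot. The authors also deposited a series table that holds a ratio: each column equalled, on checking, the processed signal over a constant per array (823, 849 and 823 for high, low and control, with medians of 0.0734, 0.0731 and 0.0737), uncentred and linear. How it was made is not given in the sources used.

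Processed signals were taken to log2, and the 75th percentile of each array was subtracted, over 58717 non-control spots. Outlier spots (352, 368 and 426) were left out unless all spots of a probe were flagged, and no non-control spot was saturated. Spots were averaged in log2. A probe counted as detected when 50% or more of its spots carried the scanner's flag for well above background, and gene ratios averaged the probes detected on both arrays. The spot error came from the SD between repeat spots, pooled in 20 bins of level over probes with every spot well above background (0.26 in the dimmest bin). Pooled over probes with at least 50% of spots above background, an alternative, it was 0.75. Genes go by the name in the files; updating through RefSeq accessions, matched for 18438 probes (60.7%), was an alternative. Groups came from the treatment labels, with 1 array each, so the 3 comparisons have no test. The gene ratios and spot errors were tested on simulated data with repeat spots, all flagged well above background and without outliers. Signals at the background and partly flagged probes, such as that of Lif, were not covered by that test. Tools were Python 3.11.15, R 4.3.3 and limma 3.58.1 (normexp with an offset of 50, quantile normalization).

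The 9 genes, the 5 companion lists and the marker sets were chosen with earlier results of these data known. Named genes were the 9, up to 4 genes per list and comparison at least 1.25-fold apart (25% in the text), otherwise the 2 furthest from 0. The 3 genes with a RefSeq symbol nearest in ratio to the 2 furthest members were also named. Stat3, Lifr, Il11ra1, Il6r, Osmr, Socs3, Tgfb1, Sema3a, receptors, cytokines and markers named beyond this, and genes named as not detected, were chosen with values in view. So were the genes named for their spot error (Stat5a, Ptpn11, Cntf, Nfkbib, Nfkbie, Traf3 and Icam1). Some genes that the rule selects are left out of the text.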

Additional observations from a re-analysis of the deposited data

How the results depend on the processing

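The ratios of Il6, Il11, Lif, Il6st and Csf1, their median and the counts over all genes were recomputed under 9 alternatives, and under 2 more chosen after the data were seen (normexp without its constant, and the median over spots). No ratio past 25% changed sign. Centring on spike-ins moved the median of the 5 genes from -0.21 to -0.057 for high over control and from -0.01 to 0.15 for low over control, and the genes past 25% from 1434 to 2314 and from 843 to 1426, of which 89.5% and 87.4% were higher in place of 48.6% and 43.5%. Normexp, which adds a constant to every spot and so shrinks dim ratios, gave 295, 117 and 203 genes past 25% for high over control, low over control and high over low (1434, 843 and 1216 at the main setting), 2, 3 and 1 past 2-fold (17, 17 and 11), and a median of the 5 genes of -0.045 for high over low in place of -0.20. The share of higher genes moved from 54.5% to 66.0% for high over low under normexp, and for low over control from 43.5% to 54.9% under quantile normalization and to 31.9% under normexp without its constant. Without the constant the counts were 900, 499 and 677 past 25%, and 3, 6 and 3 past 2-fold, with a median of -0.051 for high over low. With every probe used whatever its flag, so that more genes are counted, 5367, 4749 and 4743 genes were past 25% and 837, 781 and 673 past 2-fold. All 9 genes then had a value, with a median of 0.11 for high over control and -0.024 for high over low. With every spot well above background 10 genes were past 2-fold for high over control and 7 for high over low. With the spot error pooled over more probes, 2 of the 5 genes in place of 3 lay beyond 2 errors for high over control, without Lif. Other causes of these shifts were not tested. Signal over background limits Il6 and Lif, and no level can be given for the 4 genes that were not detected. No paired analysis was possible because each group holds 1 array.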
